A study of Drosophila melanogaster with 12 samples.

Results

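The 10 genes described here, CG3764, CG13046, CG10211, CG9757, Sirup, mol, CG11050, CG8272, CG3961 and CG10702, lie outside the V-ATPase. Their signals differed in opposite directions with gain and with loss of MiT. The disc signals of CG10702 all lay under the limit of background used below, so its rise is not a measured one. Each was chosen by its measured log2 signal, which was higher with the MiT transgene than in control wing discs and lower in MiT mutant hindgut and Malpighian tubules than in wild type. They are 10 of 12802 genes that have a probe set naming 1 gene, and each is read by 1 probe set of the Affymetrix Drosophila_2 array. Both comparisons entered the choice, so the differences of these genes are given as a description, with an SE and no p-value. Where calls among the 10 are counted below, the choice favoured the count.

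The 12 arrays were hybridised with RNA from third-instar (L3) larvae of Drosophila melanogaster, in 4 groups of 3. The discs called nub-MiT wing carried nub-Gal4 and UAS-MiT, and those called wt wing carried nub-Gal4 alone, so that both disc groups share the driver. nub-Gal4 drives a transgene in the part of the disc that forms the wing and its surroundings, not in the whole disc. The samples called EMSTZ2 HD-MT were hindgut and tubules, collected together, of larvae with the MiT allele TZ2 over the deficiency Df(4)TZ, and those called wt HD-MT were the same tissues of wild type; which other genes the deficiency uncovers, and the strain background of either, are not given in the sources used here. The labels do not say whether replicates came from separate batches of larvae, so the p-values below measure only the spread between these samples.

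MiT, listed as Mitf in the files, is the Drosophila homologue of the mammalian transcription factors MITF and TFEB. In mammals these factors bind E-box sites near genes of lysosomes and autophagy, among them those of the V-ATPase, the proton pump of lysosomes and of many epithelial membranes. The larval Malpighian tubule is an excretory epithelium rich in this pump, whereas the wing disc is a growing epithelium that has not yet differentiated. The series asked for loci that respond in opposite directions to gain and loss of MiT.

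Mitf read 8.02 to 8.21 on the log2 scale in nub-MiT discs and 7.91 to 8.15 in wt discs, so the disc groups overlapped, and whether it covers sequence of the transgene is not given. In the hindgut-tubule samples it read 4.19 to 4.54 in EMSTZ2 and 6.17 to 7.05 in wild type. Of 10 measured tubule markers 8, among them Uro, Irk2 and salt, lay under a log2 level of 4 in both disc groups. Of 12 wing disc markers 5, ap, ara, Dll, rn and vg, lay under it in both hindgut-tubule groups. But rn lay under it in both disc groups as well, so it does not separate the tissues. The other wing disc markers, such as sd, hth and wg, lay over it in the hindgut-tubule groups. Array 2 of EMSTZ2 stood apart: its median over all probe sets was 3.03, against 2.64 to 2.71 on the other 11 arrays, and it was the lowest of its group for 59.0% of the tested probe sets. Hindgut-tubule values without it are given beside the 10 genes and the gene lists below.

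All values are log2 signals normalized with GCRMA, and a log2 level of 4 was taken as the limit under which levels are not told apart from background. Probe sets at or over it on at least 3 arrays were tested with limma, and a call is an adjusted p under 0.05 over the 8678 tested probe sets. All 10 genes passed that filter. limma called 10 of 10 as higher in nub-MiT discs, where 7.13% of all tested probe sets were higher and 5.27% lower, and 10 of 10 as lower in EMSTZ2, where 7.21% were lower and 8.09% higher. The choice fixed these counts. The counts of separate arrays and the medians that follow use the same comparisons, so the choice bears on them too. They include CG10702, whose disc values all lay under a log2 level of 4. Every nub-MiT array lay above every wt disc array for 10 of 10, against 20.9% of all tested probe sets, and every EMSTZ2 array below every wt hindgut-tubule array for 10 of 10, against 12.9%; both held for 3.07% of all tested probe sets. The median log2 difference was 1.57 in the discs and -1.67 in the hindgut-tubule samples, against -0.03 and -0.003 over all tested probe sets. With values under a log2 level of 4 set to 4, the medians were 1.57 and -1.59.

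**Figure D1:**
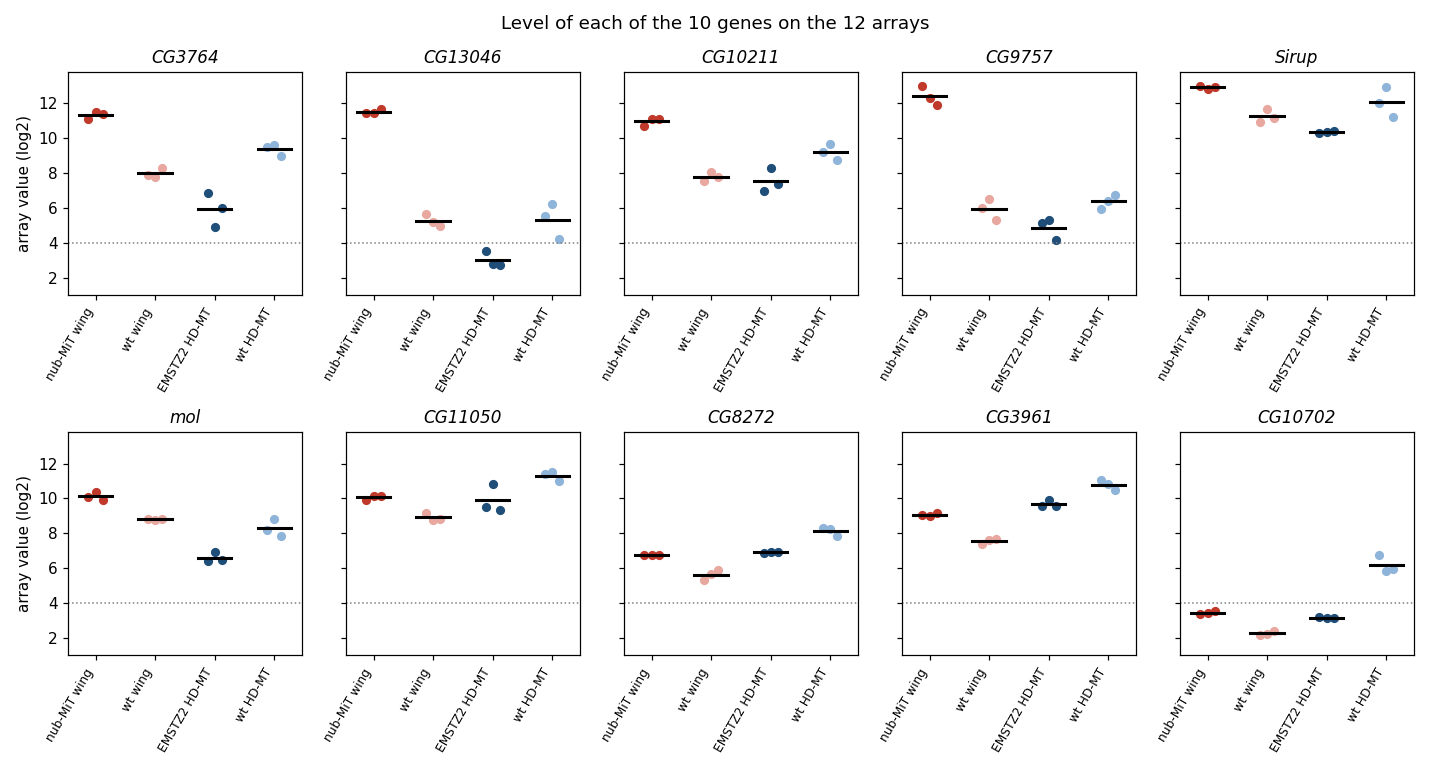
Log2 signal of each of the 10 genes on the 12 arrays, 1 panel a gene; points are arrays, black bars are group means and the dotted line marks a log2 level of 4. In 6 genes, CG3764 to mol, the nub-MiT discs are the highest group, and in the other 4 the wild-type hindgut-tubule samples are.

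The genes fell into 2 patterns of level. In 6 of them, CG3764, CG13046, CG10211, CG9757, Sirup and mol, the nub-MiT discs had the highest mean of the 4 groups and the EMSTZ2 samples the lowest. In the other 4, CG11050, CG8272, CG3961 and CG10702, the wild-type hindgut-tubule samples were highest, and in the first 3 of these the wt discs were lowest. The other groups of CG10702 all lay under a log2 level of 4 and have no order. The rule compared genotypes within each tissue, so only nub-MiT discs or wild-type hindgut-tubule samples could be highest. Likewise only wt discs or EMSTZ2 samples could be lowest. Which of them it was did not enter the rule. Some neighbours in these orders overlapped: wt discs and wild-type hindgut-tubule arrays in CG13046, CG9757, Sirup and mol, nub-MiT discs and wild-type hindgut-tubule arrays in Sirup, wt discs and EMSTZ2 in CG10211, and nub-MiT discs and EMSTZ2 in CG11050.

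The first pattern included both genes tied to the chemistry of reactive oxygen. CG10211 is listed in RefSeq under the synonym DBLOX and encodes a protein of the animal haem peroxidase family, enzymes that use hydrogen peroxide. It read 10.71, 11.07 and 11.09 in nub-MiT discs and 7.55, 8.04 and 7.77 in wt discs, which put nub-MiT 3.17 higher on the log2 scale (SE 0.33, 8.99-fold). In the hindgut-tubule samples it read 6.97, 8.31 and 7.35 in EMSTZ2 and 9.20, 9.67 and 8.76 in wild type, a difference of -1.67 (3.18-fold lower). EMSTZ2 array 2 was the highest of its group, and without it the difference was -2.05.

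mol (moladietz) encodes the maturation factor that dual oxidase needs to leave the endoplasmic reticulum and make hydrogen peroxide at the cell surface. Its nub-MiT discs read 10.08, 10.37 and 9.92 and its wt discs 8.83, 8.78 and 8.82, a difference of 1.32 (SE 0.24, 2.49-fold). EMSTZ2 samples read 6.397, 6.93 and 6.47 and wild type 8.18, 8.83 and 7.83, a difference of -1.68 (3.20-fold lower), or -1.84 without EMSTZ2 array 2. Of the 10 genes only mol had its wt disc mean above its wild-type hindgut-tubule mean, by 0.53 on the log2 scale (SE 0.24).

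Sirup encodes an assembly factor of succinate dehydrogenase, complex II of the mitochondrial respiratory chain, and is listed in RefSeq under the synonym Sdhaf4. It read 12.99, 12.81 and 12.92 in nub-MiT discs and 10.94, 11.67 and 11.17 in wt discs, a difference of 1.65 (SE 0.35, 3.13-fold) that did not pass the threshold in the authors' deposited table. In EMSTZ2 it read 10.30, 10.37 and 10.42, against 12.01, 12.93 and 11.24 in wild type, a difference of -1.70 (3.25-fold lower) that was the same without EMSTZ2 array 2. The SD between arrays was 0.06 in EMSTZ2 and 0.85 in wild type; without wild-type array 2 the fall was 1.27 and without array 3 it was 2.11 on the log2 scale.

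The remaining genes of this pattern, CG3764, CG13046 and CG9757, carry no descriptive name in the files. CG3764 was high in nub-MiT discs (11.10, 11.50 and 11.40, against 7.88, 7.80 and 8.28 in wt discs), a difference of 3.35 (SE 0.40, 10.2-fold). Its hindgut-tubule values were 6.84, 4.92 and 5.99 in EMSTZ2 and 9.51, 9.59 and 8.995 in wild type, a difference of -3.45 (10.9-fold lower). Without EMSTZ2 array 2, the lowest of its group, the hindgut-tubule difference was -2.95. CG3764 thus differed by about the same factor in each tissue.

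CG9757 and CG13046 had the largest rises of the 10 in the discs, and their order turned without nub-MiT disc 1. CG13046 read 11.47, 11.46 and 11.66 in nub-MiT discs and 5.63, 5.18 and 4.95 in wt discs, 77.3-fold apart. Its EMSTZ2 samples read 3.55, 2.78 and 2.71, all under a log2 level of 4, against 5.55, 6.24 and 4.22 in wild type, so the fall there was at least 2.52-fold (log2 difference -2.32, or -2.20 without EMSTZ2 array 2). Wild-type array 3 lay near the limit of background for this gene, and the wild-type SD was 1.03.

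CG9757 read 12.99, 12.31 and 11.89 in nub-MiT discs and 5.97, 6.52 and 5.30 in wt discs, 88.6-fold apart (SE 0.41 on the log2 scale). In EMSTZ2 it read 5.13, 5.28 and 4.15 and in wild type 5.96, 6.401 and 6.76, a difference of -1.52 (SE 0.41, 2.87-fold lower), or -1.73 without EMSTZ2 array 2. limma no longer called this fall without wild-type array 2, wild-type array 3 or EMSTZ2 array 3, and in the authors' deposited table its adjusted p lay over the threshold. On the log2 scale the rise of CG9757 was 4.26 times its fall, and in the 7 other genes measured over background on both sides the ratio was 0.78 (mol) to 1.90 (CG10211).

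In the second pattern the wild-type hindgut-tubule samples were highest. CG3961 encodes a long-chain acyl-CoA synthetase, an enzyme that activates fatty acids for oxidation or lipid synthesis. It read 9.06, 8.97 and 9.14 in nub-MiT discs and 7.40, 7.61 and 7.66 in wt discs, a difference of 1.499 (SE 0.16, 2.83-fold). EMSTZ2 samples read 9.54, 9.90 and 9.56 and wild type 11.03, 10.83 and 10.47, a difference of -1.11 (2.16-fold lower), or -1.23 without EMSTZ2 array 2.

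CG8272, listed in RefSeq under the synonym FBXL9, had an SD between arrays of 0.005 in nub-MiT discs and 0.04 in EMSTZ2. Its SD was 0.29 in wt discs and 0.24 in wild-type hindgut-tubule samples. Its nub-MiT discs read 6.76, 6.75 and 6.75 and its wt discs 5.31, 5.65 and 5.88, a difference of 1.14 (SE 0.16, 2.20-fold). EMSTZ2 samples read 6.88, 6.93 and 6.95 and wild type 8.28, 8.24 and 7.85, a difference of -1.20 (2.30-fold lower) with -1.21 when EMSTZ2 array 2 was left out.

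CG11050 had the least secure pair of differences. It read 9.93, 10.15 and 10.16 in nub-MiT discs and 9.14, 8.76 and 8.84 in wt discs, a difference of 1.17 (SE 0.33, 2.24-fold). In EMSTZ2 it read 9.54, 10.84 and 9.34, against 11.38, 11.51 and 10.99 in wild type, a difference of -1.39 (2.62-fold lower), or -1.86 without EMSTZ2 array 2. EMSTZ2 array 2 lay just under the lowest wild-type array. limma called the rise in 4 and the fall in 8 of the 12 fits that left out 1 array, and neither passed the threshold in the authors' deposited table. The rise was lost without any single disc array and without wild-type hindgut-tubule array 1 or 3, and the fall without wild-type array 1 or 2 or EMSTZ2 array 1 or 3.

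CG10702 was measured over background in 1 group alone. It read 3.37, 3.42 and 3.54 in nub-MiT discs and 2.19, 2.21 and 2.38 in wt discs, all under a log2 level of 4, so the disc groups did not overlap but no fold is given. In EMSTZ2 it read 3.19, 3.14 and 3.15, against 6.77, 5.86 and 5.96 in wild type, a fall of at least 4.58-fold (log2 difference -3.04, or -3.03 without EMSTZ2 array 2). The disc difference of CG10702 thus lies among signals that are not told apart from background.

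**Figure D2:**
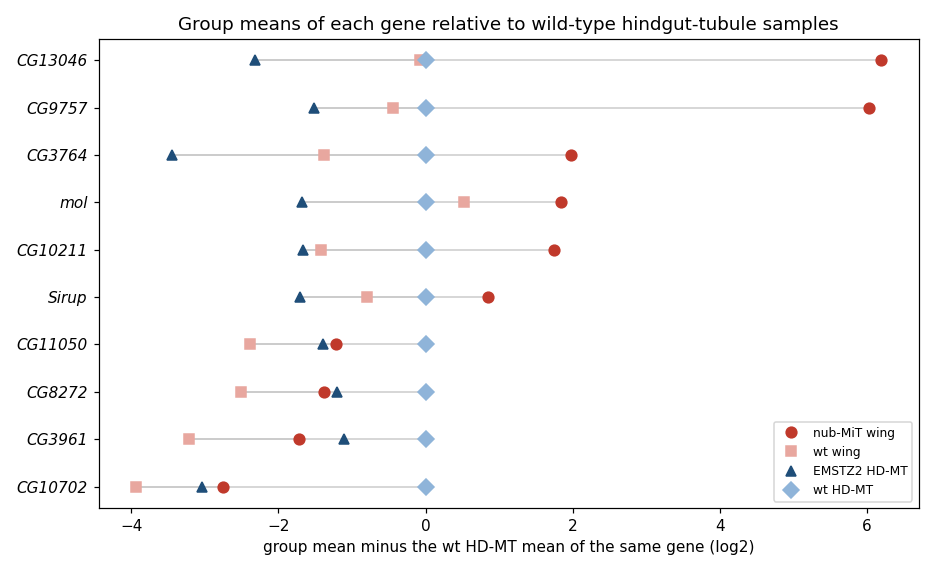
Mean of each group minus the wt HD-MT mean of the same gene, on the log2 scale, with 1 row a gene and 1 marker a group. The nub-MiT discs lie above wild-type hindgut-tubule samples in the upper 6 rows, by 0.85 (Sirup) to 6.19 (CG13046), and below them in the lower 4, by 1.22 (CG11050) to 1.72 (CG3961) in the 3 measured over background; the other CG10702 markers lie under a log2 level of 4 and have no order.

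Between the controls, 9 of the 10 genes had the lower mean in wt discs. Since the rule used all 4 groups, this order is a description. The median difference, wt discs minus wild-type hindgut and tubules, was -1.401, against 0.34 over all tested probe sets. In the second pattern wt discs lay 3.22 (CG3961), 2.51 (CG8272) and 2.38 (CG11050) below wild-type hindgut-tubule samples on the log2 scale, and those of CG10702 lay under a log2 level of 4. In the first pattern the gap was 1.42 for CG10211, 1.38 for CG3764, 0.80 for Sirup, 0.44 for CG9757 and 0.08 for CG13046. The CG13046 controls did not differ beyond their spread, and the sign of the difference turned without wt disc 3 (0.07) or without wild-type hindgut-tubule array 1 (0.03) or 2 (0.37).

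Set against that gap, the rise in the nub-MiT discs covered 45.3% (CG8272) to 48.9% (CG11050) of the distance from wt discs to wild-type hindgut-tubule samples in CG11050, CG8272 and CG3961. The fall in EMSTZ2 covered 34.6% (CG3961) to 58.3% (CG11050) of it. No share is given for CG10702, whose wt discs lay under a log2 level of 4. In CG3764, CG10211 and Sirup the rise was 205% to 243% of the gap, so that the disc level passed the hindgut-tubule level. The nub-MiT discs exceeded wild-type hindgut-tubule samples by 1.97 in CG3764, 1.85 in mol, 1.75 in CG10211 and 0.85 in Sirup, on the log2 scale. For Sirup these groups overlapped, since wild-type array 2 read 12.93.

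The V-ATPase genes were compared with these 2 patterns. Of 33 V-ATPase genes, all on the array, 20 passed the filter on dim probe sets. Of these 20 limma called 14 higher and 0 lower in nub-MiT discs, where 12.4% of all tested probe sets were called in either direction. In EMSTZ2 it called 17 lower and 1 higher, where 15.3% of all tested probe sets were called. In the discs Vha100-2 differed most (1.23, adjusted p = 0.00115) and Vha100-5, under a log2 level of 4 in both disc groups, least (-0.005, adjusted p = 1). In EMSTZ2 Vha44 fell most (-2.19, adjusted p = 3.68e-06), and VhaM9.7-c differed least (-0.07, adjusted p = 0.853). Without EMSTZ2 array 2 limma called 16 lower and 1 higher, with adjusted p of 1.91e-05 for Vha44 and 0.817 for VhaM9.7-c. Wild-type hindgut-tubule samples were the highest group for 14 of the 14 V-ATPase genes called higher in the discs and lower in EMSTZ2. Their rise covered 19.1% to 50.7% of the gap between the controls and their fall 57.0% to 85.9%.

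Over the 12 arrays CG10702, CG8272, CG3961 and CG11050 had a median Pearson correlation with the 20 V-ATPase genes of 0.96, 0.93, 0.895 and 0.89, against -0.32, -0.40, -0.45 and -0.37 with all tested genes. In the 6 genes of the first pattern the median with the V-ATPase genes lay between -0.13 (mol) and 0.28 (Sirup). These correlations share the 12 arrays, their 4 groups and the 2 tissues. Of the 12 values of CG10702 9 lay under a log2 level of 4, so its correlations rest on the wild-type hindgut-tubule arrays. Among all tested genes outside the 10, the closest to CG10702 were VhaAC45 (0.99) and Vha55 (0.98), and the closest to CG8272 were VhaPPA1-1 and CG8034 (0.98 each). GstT4, a glutathione transferase, was closest to CG3961 (0.99), and CG7920 to CG11050 (0.97).

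The genes of the first pattern had other nearest profiles. MYPT-75D was closest to CG3764 (0.96), CG41520 to CG13046 (0.98), SP1173 to CG10211 (0.96), CG14022 to CG9757 (0.975), CG17385 to Sirup (0.96) and PolrMT, the mitochondrial RNA polymerase, to mol (0.97). CG41520, CG14022 and CG8563, the other close profile of CG9757, lay under a log2 level of 4 in 3 of the 4 groups, so their likeness rests on the nub-MiT discs. Among the 10 genes themselves, CG8272 and CG3961 were the most alike of 45 pairs (0.98) and mol and CG3961 the least (-0.31). With the group means taken out, mol and CG3961 correlated at 0.44, and the pairs ranged from -0.585 (CG3764 and CG11050) to 0.78 (CG10211 and CG11050).

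**Figure D3:**
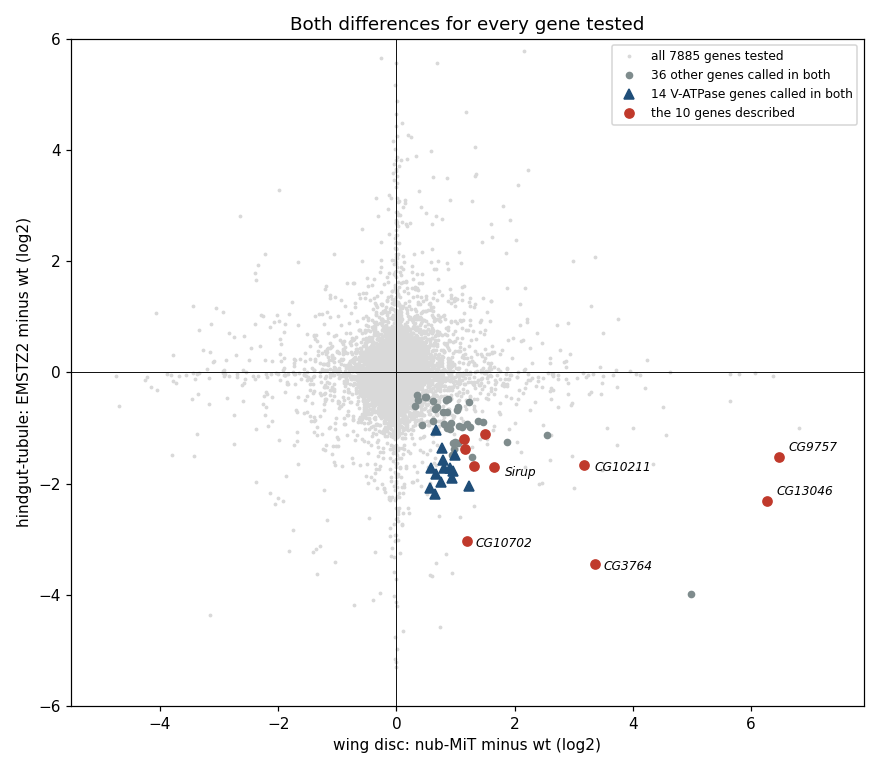
Log2 difference in the discs (horizontal axis, nub-MiT minus wt) against that in the hindgut-tubule samples (vertical axis, EMSTZ2 minus wt) for the 7885 tested genes, of which 5 lie outside the axes. The 10 genes (red) all lie at 1.14 or more to the right and 1.11 or more below 0. Of the 14 V-ATPase genes (triangles) 13 lie at less than 1 to the right. The 10 were chosen on both plotted differences, so their place beside the V-ATPase genes is a description. The disc values of CG10702 are under a log2 level of 4.

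The 10 genes came from a larger set of opposite responders. limma called 60 of 7885 tested genes, or 0.761%, higher in nub-MiT discs and lower in EMSTZ2, and 21, or 0.266%, the other way round. Of the 60, 14 were V-ATPase genes, and the 10 genes described here were among the other 46. A log2 difference of at least 1 in both tissues was found in 16 of the 60: these 10, Vha100-2, CG31098, Gdap1, GstT4, Jhbp14 and CG13295. Just outside that size were CG5969 (0.995 in the discs and -1.24 in the hindgut-tubule samples), CG8034 (1.12 and -0.99), Mipp1, CG17190 and CG13003, and just inside it were CG13295 (1.045 and -1.26) and, of the 10, CG3961 and CG8272.

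Some of those other genes exceeded several of the 10. CG31098 differed by 4.98 in the discs and by -3.98 in the hindgut-tubule samples (SE 0.28 each). Gdap1 averaged 3.65 in nub-MiT discs and 2.36 in wt discs, both under a log2 level of 4, as with CG10702. Of the 36 genes of the 60 that were neither V-ATPase genes nor among the 10, 26 were highest in wild-type hindgut-tubule samples and 10 in nub-MiT discs. Without EMSTZ2 array 2 the set grew to 94 genes, and without nub-MiT disc 3 it came to 39. When EMSTZ2 array 2 was left out limma called all 10 genes in both tissues, a count that the choice favoured. In that fit 1547 of the 8678 tested probe sets were called in the discs in either direction, and 733 were called lower in EMSTZ2.

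The call of a fall depended on how the spread was estimated. With the 6 arrays of each tissue fitted alone, limma called 10 of the 10 rises and 5 of the 10 falls. Of all tested probe sets 13.9% were called higher in the discs and 1.92% lower in EMSTZ2. The 10 genes were chosen on these same differences, so the choice favoured both of their counts. The falls kept were those of CG3764, mol, CG8272, CG3961 and CG10702, and those not called were of CG13046, CG10211, CG9757, Sirup and CG11050. The median SD between replicates of the 10 genes was 0.38 in EMSTZ2 and 0.43 in wild-type hindgut-tubule samples, against 0.12 in nub-MiT discs and 0.25 in wt discs. Wild-type array 3 was the lowest of its group in 8 of the 10 genes, against 30.2% of all tested probe sets, and stood 0.395 under the group mean on average over the 10. Without it the difference was more negative in 9 of the 10, for example -2.88 in CG13046, and less so in CG9757 (-1.33).

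Markers of other cell types moved between the disc groups as well. Of 9 hemocyte markers limma called 6 higher and 0 lower in nub-MiT discs, and the log2 of their summed signal was 11.55 to 12.09 there and 10.52 to 10.89 in wt discs. Of 12 muscle markers 3 were called higher there (11 at an unadjusted p under 0.05, and 7 by the 6-array fit), with sums of 16.74 to 17.01 in nub-MiT discs and 16.27 to 16.70 in wt discs. Of 4 tracheal markers 1 was called higher there, serp (0.74, adjusted p = 0.0102), also a close profile of CG10211 (0.95). The tracheal sums were 13.04 to 13.19 in nub-MiT discs and 12.75 to 12.99 in wt discs. Of 8 fat body markers none was called by limma (3 were lower at an unadjusted p under 0.05), with sums of 9.05 to 14.06 in nub-MiT discs and 12.54 to 14.66 in wt discs. Of 11 wing disc markers 2 were called lower in nub-MiT discs, with sums of 13.77 to 13.87 there and 14.09 to 14.27 in wt discs.

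In EMSTZ2 3 of 12 muscle markers were called higher (9 at an unadjusted p under 0.05), with sums of 16.49 to 17.11 in EMSTZ2 and 16.23 to 16.37 in wild type; without EMSTZ2 array 2 the sums were 16.49 to 16.61, with 2 markers called higher and 1 lower. Of 4 tracheal markers 1 was called lower, vvl (-1.81, adjusted p = 0.000588), and 2 were without EMSTZ2 array 2, vvl and serp. The tracheal sums were 11.40 to 11.84 in EMSTZ2, or up to 11.44 without that array, and 11.73 to 12.09 in wild type. The sums of 5 midgut markers, of which betaTry, Jon65Aiv and lab lay under a log2 level of 4, were 9.95 to 10.42 in EMSTZ2, with or without array 2, and 8.75 to 9.71 in wild type; limma called 0 of the 2 tested (1 was higher at an unadjusted p under 0.05). Of 10 tubule markers 2 were called higher and 1 lower, the same counts as without EMSTZ2 array 2. Their sums were 15.29 to 15.83 in EMSTZ2 and 15.20 to 15.97 in wild type. Dh31-R, 1 of the 2 called higher, had higher means in both disc groups than in either hindgut-tubule group. Among 9 hindgut markers limma called 2 higher and 0 lower, or 3 and 0 without EMSTZ2 array 2. Their sums were 13.28 to 13.40 in EMSTZ2 and 12.72 to 13.46 in wild type. These sums do not separate the tissues, since they were 13.16 to 13.19 in nub-MiT discs and 13.34 to 13.54 in wt discs. Dr, bowl and dve had higher means in both disc groups than in either hindgut-tubule group. Abd-B, byn, cad, fkh and otp lay under a log2 level of 4 in both disc groups. Among 8 fat body markers none was called, or 1 lower without that array. The fat body sums were 15.28 to 17.10 in EMSTZ2 and 16.05 to 17.23 in wild type. Of 9 hemocyte markers 1 was called higher, with and without that array, with sums of 11.05 to 11.66 in EMSTZ2 and 11.21 to 11.70 in wild type. The part of these cells in the values of the 10 genes was not tested, and fewer cells of a type and less RNA per cell cannot be told apart in such samples.

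The nearest gene on each side of each of the 10, taken from the RefSeq gene order of Release 6, was measured next, since the rule did not use these genes. Of 20 neighbours 16 were on the array under 1 gene name and 11 passed the filter on dim probe sets. In nub-MiT discs limma called 2 higher and 2 lower (12.4% of all tested probe sets were called), with a median log2 difference of 0.02, and in EMSTZ2 2 higher and 2 lower (15.3% were called), with a median of -0.14. None of the 11 was called higher in the discs and lower in EMSTZ2. Over all tested genes that share was 0.761%, so a list of this length says little on it.

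CG13045, next to CG13046, averaged 7.32 ± 0.20 in nub-MiT discs and 5.06 ± 0.62 in wt discs (SD, n = 3 each), a difference of 2.26 (SE 0.25, adjusted p = 0.000286). In the hindgut-tubule samples it lay under a log2 level of 4 in both genotypes. CG13047, on the other side of CG13046, did not pass the filter. Ugt301D1, a UDP-glycosyltransferase next to CG10211, went the other way in the discs, at 5.50 ± 1.395 in nub-MiT discs and 9.06 ± 0.85 in wt discs (SD, n = 3 each), a difference of -3.56 (SE 0.65, adjusted p = 0.00564). It read 12.46 in EMSTZ2 and 12.50 in wild type (adjusted p = 0.981).

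Wwox, an oxidoreductase whose gene overlaps Sirup in the annotation, fell in EMSTZ2 to 7.88 ± 0.22, against 8.55 ± 0.27 in wild type (SD, n = 3 each; -0.68, SE 0.16, adjusted p = 0.0183). It did not pass the test in the discs (0.17, adjusted p = 0.618), and its fall was lost without wild-type array 1 or 3. CG9269, next to CG9757, was higher in EMSTZ2, at 13.27 ± 0.09 against 12.44 ± 0.23 in wild type (SD, n = 3 each; 0.84, adjusted p = 0.00109), and lay under a log2 level of 4 in both disc groups. Exn, next to CG3764, was higher in nub-MiT discs (0.63, adjusted p = 0.00495) and in EMSTZ2 (0.41, adjusted p = 0.0357). DCTN5-p25, a dynactin subunit next to mol, was lower in nub-MiT discs (-0.50, adjusted p = 0.0465) and in EMSTZ2 (-0.58, adjusted p = 0.022).

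**Figure D4:**
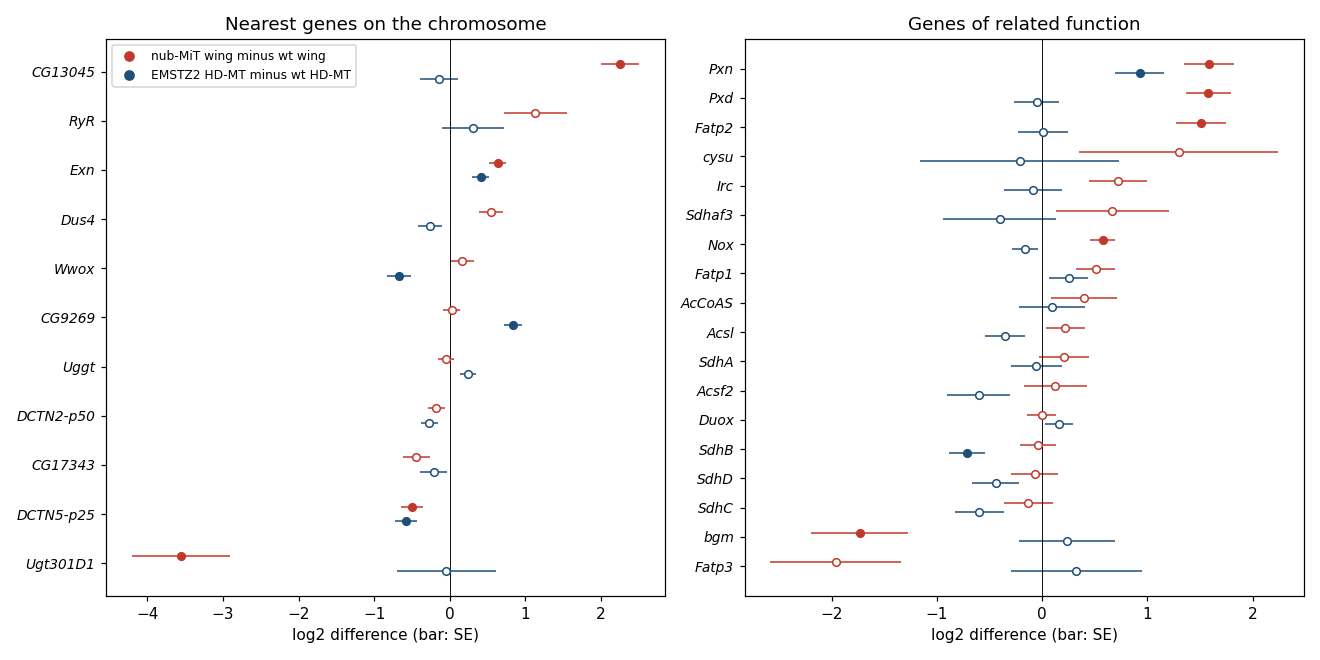
Log2 difference with its SE for each tested neighbour (left panel) and each tested gene of related function (right panel), in the discs (red) and in the hindgut-tubule samples (blue); filled points were called by limma and open points were not. No gene in either panel has a filled point to the right in the discs together with a filled point to the left in the hindgut-tubule samples. Over all tested genes 0.761% were called in this way.

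The neighbour calls in EMSTZ2 were not firm. The 6-array fit called 0 of the 11 there, with CG9269 nearest (adjusted p = 0.0504; 3 were higher and 3 lower at an unadjusted p under 0.05 in the 12-array fit). Without wild-type array 1 or 3 CG9269 alone was called. Exn lost its EMSTZ2 call with the replicate block (adjusted p = 0.0519) and in 8 of the 12 fits that left out 1 array. DCTN5-p25 lost its disc call in 9 of those fits and its EMSTZ2 call in 3, namely without wild-type array 1 or 3 or EMSTZ2 array 3. Without EMSTZ2 array 2 all 4 EMSTZ2 calls stayed, with adjusted p of 0.00193 (CG9269) to 0.0404 (Exn).

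Genes that work with the 4 members of known biochemistry, or belong to their families, were counted last: complex II subunits and assembly factors, NADPH oxidases and haem peroxidases, and acyl-CoA synthetases. Of 27 such genes 18 passed the filter. In the discs limma called 4 higher and 1 lower (12.4% of all tested probe sets were called), with a median of 0.31. In EMSTZ2 it called 1 higher and 1 lower (15.3% were called), with a median of -0.07. None was called higher in the discs and lower in EMSTZ2, against 0.761% of all tested genes, so this list too is short for that question.

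Of the oxidases and peroxidases 3 of 6 were higher in nub-MiT discs and 0 lower. Pxd, the chorion peroxidase, averaged 11.76 ± 0.11 in nub-MiT discs and 10.18 ± 0.54 in wt discs (SD, n = 3 each; 1.58, adjusted p = 0.000971) and lay under a log2 level of 4 in both hindgut-tubule groups. Pxn (peroxidasin), a peroxidase of the basement membrane and also 1 of the 9 hemocyte markers above, rose by 1.58 (adjusted p = 0.00166) and was higher in EMSTZ2 as well (0.93, adjusted p = 0.0246). Its EMSTZ2 call was lost without wild-type array 1 or 2 or EMSTZ2 array 1. Nox, an NADPH oxidase, was 0.57 higher in the discs (adjusted p = 0.0123), a call lost without wt disc 3 (adjusted p = 0.0512). Duox, the oxidase that the mol protein serves, read 8.83 in nub-MiT discs and 8.84 in wt discs (adjusted p = 1), and 7.16 in EMSTZ2 and 7.001 in wild type (0.16, adjusted p = 0.504, or 0.428 without EMSTZ2 array 2).

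Complex II subunits and assembly factors were not called in the discs (0 of 5 by limma, also at an unadjusted p under 0.05, and 2 of 5 by the 6-array fit). In EMSTZ2 SdhB, the iron-sulphur subunit, fell to 11.06 ± 0.25, against 11.78 ± 0.29 in wild type (SD, n = 3 each; -0.71, adjusted p = 0.0204), a call lost without EMSTZ2 array 1 or 3. SdhC was -0.60 (adjusted p = 0.12, and 0.0449 with the replicate block), SdhD was -0.44 (adjusted p = 0.232), and SdhA was -0.06 (adjusted p = 0.923, or 0.418 without EMSTZ2 array 2). Of 7 acyl-CoA synthetase genes Fatp2, a fatty acid transport protein, was higher in nub-MiT discs (1.51, adjusted p = 0.00236), and bgm (bubblegum), a very-long-chain synthetase, was at least 2.94-fold lower (adjusted p = 0.0337), a call lost without any 1 of the 6 disc arrays. None of the 7 was called in EMSTZ2 by limma or by the 6-array fit, and 0 were at an unadjusted p under 0.05.

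The counts over these 18 genes moved with the arrays in the fit. Without EMSTZ2 array 2 limma called SdhB, SdhC, SdhD and Acsf2 lower and Pxn and cysu higher in EMSTZ2, 6 in all, where cysu was -0.21 with all arrays; it called 9 in the discs. Without EMSTZ2 array 1 none of the 18 was called in EMSTZ2, and without EMSTZ2 array 3 or wild-type array 1 or 2 it called 1. Without wt disc 3 it called 3 in the discs. The 6-array fit called 0 in EMSTZ2 and 11 in the discs.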

How the data were processed

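The authors deposited log2 expression values of 12 arrays, made with GCRMA per the submitters' processing notes; versions and the genome build are not given in the sources used here. They also deposited a table with adjusted p-values and signed fold changes of an analysis of variance, per the file headers, whose adjusted p-values served as 1 alternative. The 12 columns of sample values in that table were not used. Of 18952 probe sets 183 controls were left out. Through RefSeq accessions (13957) and symbols (367) of Release 6, or the file's name alone (197), 14521 had 1 gene, 263 several and 3985 none. A gene was read from its probe set with the highest mean.

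limma 3.58.1 in R 4.3.3 (lmFit, eBayes, 1 mean a group, 12 arrays, 8 residual and 2.08 prior degrees of freedom) gave every adjusted p (Benjamini-Hochberg) unless another fit is named. The fit was tested on simulated data. Deviations from the group mean correlated at r = 0.29, 0.38 and 0.14 between same-numbered hindgut-tubule arrays. EMSTZ2 array 3 and wild-type array 1 gave 0.336, so pairing by number is not established. Same-numbered discs gave 0.335, -0.05 and -0.18, and nub-MiT disc 2 with wt disc 3 gave 0.407. The replicate number was a block in 1 alternative.

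The 10 genes and all lists were chosen with earlier results of these data known. The named genes were the 10, each called neighbour and gene of related function, the largest and smallest V-ATPase changes, the closest profiles and the 10 largest other opposite responders. Duox, SdhA, SdhC, SdhD, cysu and Acsf2 were named after their values were seen. Number of arrays limits the precision. A bound in folds sets values under a log2 level of 4 to 4.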

Additional observations from a re-analysis of the deposited data

How the results depend on the processing

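Differences of single genes were recomputed under quantile normalization, over all probe sets of a gene or without 1 array. Of these 420 differences 416 moved by less than the spread between replicates, but many could not move. Each of the 10 genes has 1 probe set, so the 30 values over all probe sets repeat the main ones. Leaving out an array of a group outside the comparison changes nothing either. The count of 416 is thus no measure of stability. The reversals were all of the CG13046 difference between wt discs and wild-type hindgut-tubule samples, which became 0.03, 0.37 and 0.07 without wild-type array 1, wild-type array 2 and wt disc 3, in a range of -0.64 to 0.37; the cause was not tested. The 6-array fits called 2604 probe sets in the discs and 349 in the hindgut-tubule samples, against 1076 and 1328, and 35 opposite responders, against 60. They called 11 and 0 genes of related function and 7 and 0 neighbours. The authors' deposited table called 703 and 862 probe sets, 39 opposite responders, 0 genes of related function and 1 neighbour in EMSTZ2. With no filter on dim probe sets 1 gene of related function was called in EMSTZ2. Without single arrays the calls ranged from 636 to 1547 probe sets in the discs and 903 to 1859 in the hindgut-tubule samples, from 39 to 94 opposite responders, from 3 to 9 and 0 to 6 genes of related function, from 3 to 6 and 1 to 5 neighbours (1 in EMSTZ2 without wild-type array 1 or 3, 2 without EMSTZ2 array 3), and from 13 to 15 and 16 to 18 V-ATPase genes. The count of disc probe sets was lowest without nub-MiT disc 2 (636), 3 (643) or 1 (713). The medians over the 10 genes ranged from 1.45 to 1.69 in the discs, from -1.90 to -1.42 in the hindgut-tubule samples and from -1.61 to -1.23 between the controls. The replicate block gave 977 and 1316 probe sets and 53 opposite responders. It called 10 of the 10 genes in each tissue, a count that the choice of these genes favoured. With the nearest protein-coding genes, a choice made after seeing the data, 2 were higher and 2 lower in each comparison of 13 tested. Signals under a log2 level of 4 limit what CG10702 in the discs and CG13046 in EMSTZ2 can show.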
